A study of Mus musculus with 4 samples.

Results

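Mouse embryonic fibroblasts without FAN were compared with and without tumour necrosis factor (TNF), on 2 of the 4 arrays of the study. The arrays were chosen by title, as the TNF-treated minus the untreated array of FAN -/- cells, and 34945 of 45101 probe sets name a single gene. They stand for 18193 genes, each read from its probe set of highest mean signal. Of these genes, 11925 lay above the floor of 77.0 signal units on at least 1 of the FAN -/- arrays and are called measured below, and 6268 did not. The floor is the median of all deposited values, and lower signals were raised to it, so that a gene at the floor on 1 array has only a bound for its fold.

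The fibroblasts came from C57BL/6 embryos of FAN +/+ or FAN -/- genotype and were kept in medium with 0% fetal calf serum. Untreated cells spent 24 h in this medium. Treated cells spent 8 h in it and then 16 h in it with TNF at 50 ng/ml. Total RNA was read on Affymetrix Mouse Genome 430 2.0 arrays, 1 for each of the 4 conditions, so no value has a replicate, an SD or a p-value, and "higher" and "lower" describe these arrays alone. Precision is limited throughout by there being so few arrays. Whether separate cell preparations stand behind the arrays, how many embryos were used and which part of Nsmaf is deleted are not stated in the labels. The genotype entry of 2 samples goes against their titles: it calls the TNF-treated FAN +/+ array FAN -/- and the untreated FAN -/- array wild type. Under that entry there would be no untreated FAN -/- array, so each value below rests on the titles. The description texts speak of embryo stages that do not belong to fibroblasts and were not used.

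The 4 arrays were alike in their overall level, with median log2 values of 6.21 to 6.296, 49.2% to 50.5% of probe sets above the floor, and 3' to 5' signal ratios of 1.32 to 1.39 for Actb and 1.03 to 1.09 for Gapdh. Nsmaf, which encodes FAN, gave a signal of 239.8 in untreated and 179 in TNF-treated FAN -/- cells, against 496 and 376 in FAN +/+ cells. Its signal was thus lower on both arrays titled FAN -/- than on both others, and not at the floor. All 12 fibroblast markers were measured, among them Col1a1, Col1a2, Col3a1, Pdgfra, Pdgfrb and Vim. Of 12 leukocyte markers 5 were measured, among them Lyz2 (778 untreated and 310 with TNF in FAN -/- cells). Ptprc, Cd68, Adgre1, Itgam, Fcgr3, Tyrobp and Cd53 did not lie above the floor on either FAN -/- array. Of 8 endothelial markers 3 were measured, and Pecam1, Cdh5, Tie1, Emcn and Cldn5 were not. Of 8 epithelial markers 4 were measured, and Cdh1, Krt14, Krt18 and Esrp1 were not.

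TNF acts through a pair of receptors, of which TNF receptor 1 assembles a complex of adaptors and ubiquitin ligases that switches on the IKK kinases, frees NF-kB from its inhibitors and, under other conditions, can start cell death. FAN, the protein that Nsmaf encodes, is an adaptor with a BEACH domain and WD repeats that binds TNF receptor 1 next to its death domain and is linked to neutral sphingomyelinase. Fibroblasts answer TNF with chemokines, cytokines, adhesion molecules and matrix proteases, and with lower transcripts of many matrix genes.

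Of the 11925 measured genes, 165 were at least 2-fold higher with TNF (1.38%) and 131 at least 2-fold lower (1.1%), or 2.48% either way. Each list count below is to be set beside these shares. In a short list, a count of 0 or 1 is near what they give and is no result about the list. The median log2 difference over all measured genes was 0.01, and 10901 genes (91.4%) lay within 0.5 log2 of 0. The higher side reached further than the lower: 39 genes were at least 4-fold and 15 at least 8-fold higher, against 11 and 1 lower. For 17 of the higher and 7 of the lower genes the fold is a bound. Genes that were higher came from weak untreated signals, with a median of 238 against 396 for all measured genes, and had a median of 816 with TNF. Genes that were lower came from strong ones, with a median of 658 untreated and 249 with TNF. Choosing both groups on this same untreated array favours such a contrast. The floor also keeps a gene of weak untreated signal from being called lower. At the edges of the 2-fold limit, Limd2 and Myc lay just inside (log2 differences of 1.0002 and 1.004) and Gpr137b and Cdc42ep5 just outside (0.98 and 0.98). On the lower side Itgbl1 (-1.01) and Pgr (-1.005) lay just inside, and Prrx2 (-0.99) and Cdh3 (-0.99) just outside. Further probe sets above the floor existed for 76 of the higher genes and had the same sign throughout for 74 of them, and for 44 genes at least 1 of them was itself 2-fold higher. For the lower genes these numbers were 55, 53 and 36.

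**Figure D1:**
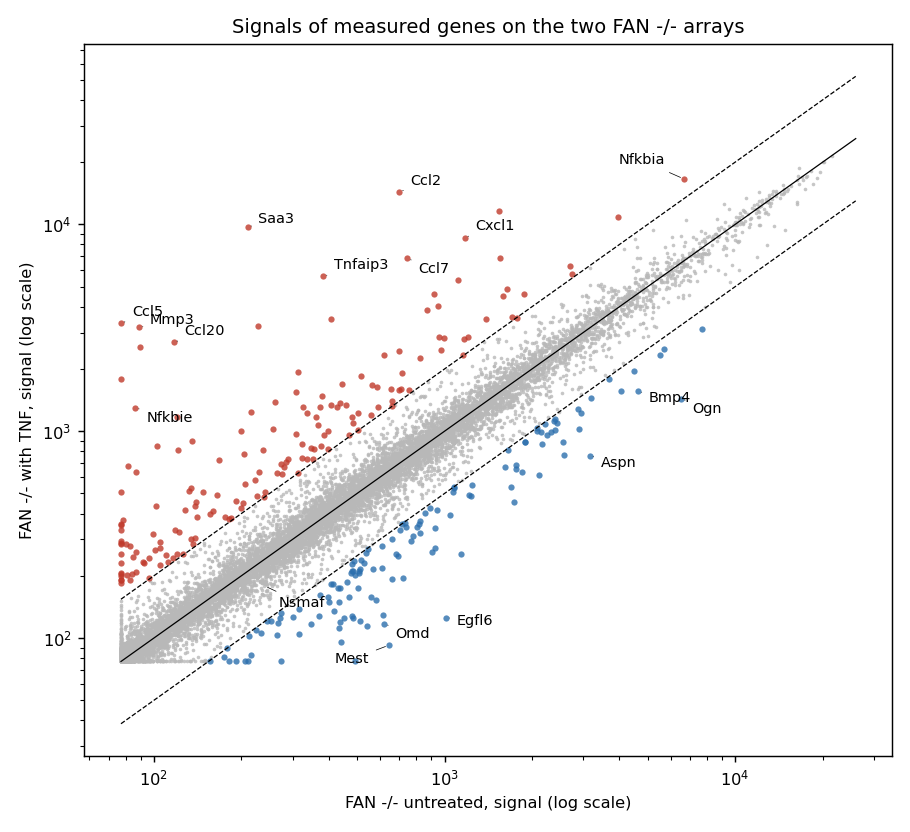
Signal of each of the 11925 measured genes on the untreated FAN -/- array (x axis, log scale) and on the TNF-treated FAN -/- array (y axis, log scale), with signals under 77.0 drawn at 77.0. The solid line marks equal signals and the dashed lines a 2-fold difference; the 165 genes in red lie above and the 131 in blue below, with Saa3, Ccl5 and Mmp3 farthest up and Egfl6 farthest down.

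The promoters of 4 genes are shown because they hold, next to the start of strongly differing genes, the letters that factors switched on by TNF and interferons are known to bind. They are the 4 inflammatory genes of largest difference with a match and an entry in the table, so the presence of a match was part of the choice. They are RefSeq sequences of build GRCm38.p6, each 300 bases on the gene's own strand, 5′ to 3′: Saa3 at chr7:46715627-46715926 (minus strand), Cxcl10 at chr5:92348840-92349139 (minus), Cxcl2 at chr5:90903649-90903948 (plus) and Ccl20 at chr1:83116516-83116815 (plus). Capitals mark matches to GGGA, any 4 bases, CC (kappaB, bound by NF-kB), to GAAA, any 2 bases, GAAA (ISRE, bound by interferon-regulated factors) and to TGANTCA (AP-1), searched on both strands. The Cxcl2 promoter holds a pair of kappaB matches that overlap on opposite strands, the Cxcl10 promoter holds a pair that do not overlap, with an ISRE and an AP-1 match, and Saa3 and Ccl20 hold 1 match each, to ISRE and kappaB.
Saa3: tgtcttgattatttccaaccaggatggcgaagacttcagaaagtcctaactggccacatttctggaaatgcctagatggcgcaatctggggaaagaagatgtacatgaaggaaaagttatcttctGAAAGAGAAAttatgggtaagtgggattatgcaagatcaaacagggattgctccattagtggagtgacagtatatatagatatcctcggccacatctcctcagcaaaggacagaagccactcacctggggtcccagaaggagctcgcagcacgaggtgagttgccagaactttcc
Cxcl10: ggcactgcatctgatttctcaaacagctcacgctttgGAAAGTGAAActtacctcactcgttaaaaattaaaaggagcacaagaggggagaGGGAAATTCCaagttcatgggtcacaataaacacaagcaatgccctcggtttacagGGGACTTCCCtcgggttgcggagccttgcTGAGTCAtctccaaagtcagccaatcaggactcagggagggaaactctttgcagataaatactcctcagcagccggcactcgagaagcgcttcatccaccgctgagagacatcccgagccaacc
Cxcl2: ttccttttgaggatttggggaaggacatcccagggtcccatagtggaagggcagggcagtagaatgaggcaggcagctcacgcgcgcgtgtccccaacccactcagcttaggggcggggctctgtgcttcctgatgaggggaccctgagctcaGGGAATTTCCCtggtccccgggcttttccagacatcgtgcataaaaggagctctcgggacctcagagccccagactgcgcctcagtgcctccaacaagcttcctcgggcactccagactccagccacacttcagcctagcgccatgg
Ccl20: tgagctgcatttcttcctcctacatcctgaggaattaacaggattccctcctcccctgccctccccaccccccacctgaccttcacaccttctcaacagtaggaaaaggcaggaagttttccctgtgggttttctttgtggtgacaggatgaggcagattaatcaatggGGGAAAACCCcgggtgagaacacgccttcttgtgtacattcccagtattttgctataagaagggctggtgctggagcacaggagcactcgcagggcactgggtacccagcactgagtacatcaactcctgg

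Over all genes at least 2-fold higher, 117 of 165 had a promoter in the RefSeq table, some more than 1, which gave 153 promoters. A kappaB match stood in 37.3% of them (Wilson 95% interval 29.99% to 45.1%), against 26.7% of the 12328 promoters of measured genes and 20.7% of all 32851 in the table. For ISRE the shares were 9.80%, 2.78% and 3.44%, and for AP-1 12.4%, 5.18% and 7.81%. Among the 124 promoters of genes at least 2-fold lower, 27.4% held a kappaB match, 4.03% an ISRE match and 2.42% an AP-1 match. Counted per gene, 48 of the 117 higher genes with a promoter held a kappaB match, against 2966 of 9602 measured genes. The interval covers counting only and takes promoters of the same gene as separate, so it is too narrow. A match is a run of letters, not a bound site.

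Of 18 measured genes of the TNF receptor and adaptor list, 1 was at least 2-fold higher and 0 lower, where 1.38% and 1.1% of all measured genes were. The median log2 difference of the list was 0.18, beside 0.01 for all genes. That gene was Birc3, a ubiquitin ligase of the receptor complex and an NF-kB target, at 308 untreated and 1543 with TNF (5.02-fold). Its relative Birc2 went from 383 to 737, a log2 difference of 0.94, just short of 2-fold. Tnfrsf1a, the receptor that FAN binds, read 3357 and 2928 (log2 -0.20), and Tnfrsf1b, the other TNF receptor, 358 and 431 (0.27). Traf1, often used as an NF-kB target, stood below the floor untreated and at 102 with TNF, at least 1.32-fold higher.

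Among the NF-kB subunits, those of the alternative arm were past the limit. Relb was 5.01-fold higher (199.7 to 1001), and Nfkb2, which encodes its p100 partner, 3.15-fold (309 to 973). Rela, the main canonical subunit, was 1.57-fold higher (2542 to 3998) and so under the limit. Among the kinases, Ikbke was 3.54-fold higher (372 to 1315), while Ikbkb, the canonical kinase, had a log2 difference of 0.41 and Tbk1 of 0.25. In all, 3 of 8 genes of this list were at least 2-fold higher, and each of the others had a positive difference.

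Genes that shut NF-kB down included several of the largest differences. Of 16 measured inhibitors and feedback genes, 6 were at least 2-fold higher and 0 lower, with a median of 0.81. Nfkbie, which encodes the inhibitor IkB epsilon, went from 86.3 to 1299 (15.1-fold). Tnfaip3, the ubiquitin-editing enzyme A20, went from 382 to 5611 (14.7-fold), and its partner Tnip1 from 953 to 4015 (4.21-fold). These 3 genes lay close to their FAN +/+ responses, at log2 differences of 3.91, 3.88 and 2.08 against 3.85, 3.77 and 2.00. Nfkbia, the inhibitor IkB alpha, was strong before TNF and stronger with it, 6662 against 16599.9 (2.49-fold), and its 4 other probe sets gave log2 differences of 1.54 to 2.85. With TNF its signal lay near the top of the range of the array in both genotypes (16629.8 in FAN +/+ cells). The part of this limit in its fold was not tested. Bcl3, a nuclear IkB protein, was 3.97-fold and Zc3h12a, an RNase that degrades cytokine mRNA, 2.61-fold higher. Socs3, an inhibitor of cytokine receptors, went the other way without reaching the limit (2263 to 1172, log2 -0.95).

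Immediate early genes, which code for AP-1 subunits and related factors, lay on both sides. Fosl1 was 2.94-fold (367 to 1078), Maff 2.49-fold (384 to 954) and Myc 2.01-fold higher. Fosb was 2.03-fold lower (1652 to 815), and Fos went from 12885 to 7945 (log2 -0.70). Jun, Junb and Egr1 differed by -0.24, 0.19 and -0.06 log2. In all, 3 of 16 genes were 2-fold higher and 1 lower, with a median of 0.05.

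Chemokines held many of the largest differences. Of 11 measured CC chemokines, 6 were at least 2-fold higher and 0 lower (median 1.72), far above the 1.38% of all genes. Ccl2, which draws monocytes, went from 699.5 to 14345 (20.5-fold), near the top of the range of the array. Ccl7, with much the same targets, went from 745 to 6849 (9.20-fold). Ccl8 was weaker throughout, at 102 and 436 (4.28-fold). Ccl20, the ligand of CCR6 on lymphocytes and dendritic cells, went from 117 to 2688 (22.97-fold). Ccl5, which draws T cells and monocytes, was below the floor untreated and at 3319 with TNF, at least 43.1-fold higher. In FAN +/+ cells the same probe set of Ccl5 read 81.8 and 14699, so the TNF-treated FAN -/- array stood well under the TNF-treated FAN +/+ array for this gene. Ccl9 reached 255 from below the floor, at least 3.31-fold, against a 21.6-fold difference in FAN +/+ cells. Ccl4 (85.1 and 91.3) stayed weak, and Ccl3, Ccl11, Ccl12 and Ccl22 did not lie above the floor on either array.

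Of 5 measured neutrophil-attracting chemokines, 3 were at least 2-fold higher and 1 lower. Cxcl1 went from 1173 to 8636 (7.36-fold) in FAN -/- cells, and from 8725 to 12793 (1.47-fold) in FAN +/+ cells. Cxcl5 did the same, from 918 to 4626 (5.04-fold) against 5457 to 8307 (1.52-fold). In both cases the larger fold of FAN -/- cells went with a lower untreated signal, and the TNF-treated signal remained below that of FAN +/+ cells. Cxcl2 was below the floor untreated and at 1779 with TNF, at least 23.1-fold higher. Cxcl15, known from lung epithelium, was the lower gene of the group, at 191 untreated and below the floor with TNF, at least 2.49-fold lower, though its other probe set differed by 0.00 log2. On the FAN +/+ arrays it was among the strong genes, at 7698 and 4072.

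Among chemokines for lymphocytes, Cxcl10, an interferon-inducible ligand of CXCR3, went from 89.9 to 2562 (28.5-fold). Both membrane-bound chemokines were higher, Cxcl16 at 6.17-fold (314 to 1935) and Cx3cl1 at 5.34-fold (260.1 to 1388). The homeostatic ones lay on the other side. Cxcl12, the stromal ligand of CXCR4, went from 11879.5 to 6994 (log2 -0.76), short of the limit, and Cxcl14 from 804 to 345 (2.33-fold lower). Cxcl9 and Cxcl11, the other ligands of CXCR3, did not lie above the floor. Of 4 measured chemokine receptors, 0 were 2-fold higher and 0 lower.

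Cytokines other than chemokines were higher in a few cases. Il6, the classic cytokine of TNF-treated fibroblasts, was below the floor untreated and at 294 with TNF, at least 3.82-fold higher, against a signal of 2520.1 on the TNF-treated FAN +/+ array. Lif, of the same family, went from 562 to 1671 (2.97-fold), although its other probe set differed by only 0.09 log2. Csf1, the macrophage growth factor, went from 3944 to 10879 (2.76-fold), and its other probe sets gave log2 differences of 1.90 to 2.18. Tslp, which acts on dendritic cells, went from 82.8 to 279.8 (3.38-fold), and Il1rap, the shared chain of IL-1 type receptors, from 156 to 400.0 (2.56-fold). Csf2 and Csf3 were weak, with log2 differences of 0.90 as a bound and 0.35. Il1a, Il1b and Il33 did not lie above the floor. In the IL-6 family list, receptors included, 2 of 10 genes were 2-fold higher.

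Il1rn, which encodes the IL-1 receptor antagonist, was the lower gene in a list of 16, of which 3 were higher. It went from 2569.8 to 771, 3.34-fold lower with TNF, and its other probe sets gave log2 differences of -1.79 and -1.76. In FAN +/+ cells it read 2731 and 2768. The untreated arrays of both genotypes and the treated FAN +/+ array thus lay close together, and only the TNF-treated FAN -/- array was low. Tnfrsf11b, the decoy receptor osteoprotegerin, was 2.48-fold lower (463 to 187), the only gene of 10 other TNF superfamily members past the limit. The death receptor Fas went from 940.3 to 1609 (log2 0.77).

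Of the receptors for microbial products, Tlr2 was 6.73-fold higher (121 to 812), while Tlr3 and Tlr4 differed by 0.73 and 0.39 log2. Lbp, the carrier of lipopolysaccharide, went from 121 to 1171 (9.72-fold). Its other probe set differed by 0.21 log2 only. Adaptors of the pathway differed little, with Myd88 at 0.21 and Irak1 at 0.08. The count for this list was 2 of 16, with a median of 0.22.

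**Figure D2:**
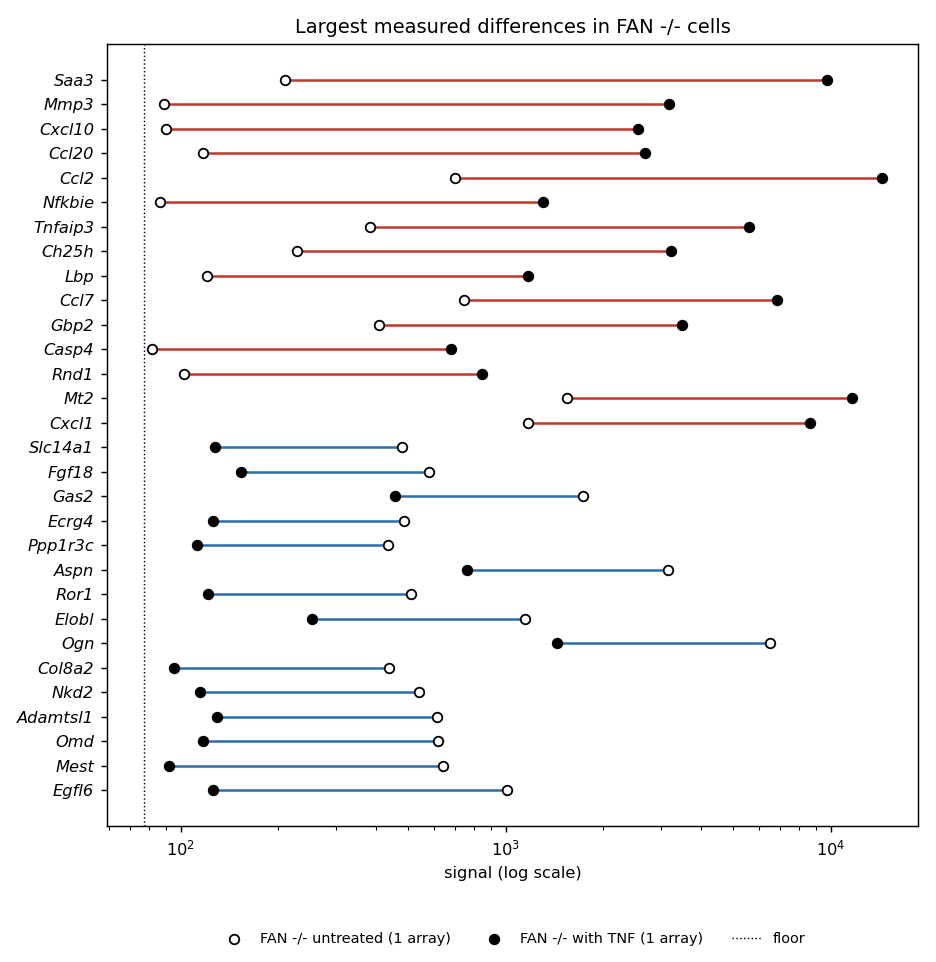
Signals (log scale) of the 15 genes with the highest and the 15 with the lowest log2 difference among genes above the floor on both FAN -/- arrays, untreated (open) and with TNF (filled), 1 array each. Only genes whose other measured probe sets, if any, had the same direction were eligible. The dotted line is the floor of 77.0; Saa3 spans the widest range, from 210.2 to 9717, and Egfl6 the widest downward, from 1011 to 126.

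Of 10 measured interferon-inducible GTPases, which attack pathogen vacuoles, 5 were at least 2-fold higher, and all 10 had a positive difference (median 1.08, against 2.38 in FAN +/+ cells). Gbp2 went from 408 to 3492 (8.56-fold), and its other probe set gave a log2 difference of 3.21. Ifi47 went from 335 to 1223 (3.65-fold). Gbp3 came from below the floor to 333, at least 4.33-fold higher. Gbp6 came from below the floor to 288, at least 3.74-fold higher, against 114 and 4326 on the FAN +/+ arrays. Gbp7 was 2.49-fold higher, with its other probe set at 0.43 log2. With the floor at percentile 70 the count was 2, with Gbp3 at 0.54 and Gbp6 at 0.33 log2, and with the mean of all probe sets it was 3. The guanylate-binding proteins are close copies of each other, so signal may be shared among their probe sets. Irgm1 (log2 0.71), Igtp (0.46) and Mx2 (0.11) stayed under the limit.

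Upstream of these genes, the transcription factor Irf1 went from 697 to 2439 (3.50-fold) and the interferon-gamma receptor chain Ifngr2 from 1155 to 2346 (2.03-fold). Irf7 and Socs1 came from below the floor to 85.8 and 118, and Stat2 differed by 0.06 log2. Stat3 went from 2338 to 1734 (log2 -0.43). Of 18 measured STAT, IRF and receptor genes, 2 were 2-fold higher, where 1.38% of all measured genes were.

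Of 25 measured antiviral effectors and RNA sensors, 5 were at least 2-fold higher, and 1 was with the floor at percentile 70. All 25 had a positive difference, the smallest 0.01 log2, and the median was 0.36 (0.86 in FAN +/+ cells, with 11 of 27 at 2-fold). Ifitm1, a membrane protein that blocks viral entry, led with 217 and 1234 (5.70-fold). Ifit1, which binds viral RNA, was 3.56-fold (80.0 to 284) and Ifih1, the RNA sensor MDA5, 2.67-fold higher (122 to 325). Parp14 was 2.92-fold and Bst2, or tetherin, 2.08-fold higher. The oligoadenylate synthetases Oas1a and Oas2 differed by 0.05 and, as a bound, 0.08 log2, and Rsad2 by 0.27. Among genes that none of the lists held, chosen after their values were seen, the interferon-inducible Plscr1 (3.79-fold), Slfn2 (3.26-fold), Dtx3l (2.39-fold) and Nmi (2.10-fold) were also higher.

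Antigen presentation on MHC class I had 4 of 11 measured genes at least 2-fold higher. H2-K1, a class I heavy chain, went from 1548 to 6914 (4.47-fold), with log2 differences of 0.45 to 2.23 on its other probe sets. H2-D1, another heavy chain, went from 1595 to 4495 (2.82-fold). As these genes are near copies, the split between them is uncertain. Tapbp, or tapasin, which loads peptide, was 2.50-fold (1391 to 3480.0) and the peptide trimmer Erap1 2.23-fold higher (135 to 300.2, with its other probe set at 0.19 log2). B2m, the light chain, was near the top of the range in both states (10877 and 13438, log2 0.30), and the transporter genes Tap1 and Tap2 differed by 0.12 and 0.59. The immunoproteasome subunits Psmb8 and Psmb10 went from 132 to 517 (3.91-fold) and from 379.9 to 1474 (3.88-fold). Averaged over all its probe sets, dim ones included, Psmb8 differed by only 0.34 log2. Psmb9 (95.3 to 157, log2 0.72) and Psme1 (0.51) stayed under 2-fold, which leaves 2 of 4 at the limit or past it. Of the constitutive proteasome subunits 0 of 14 were at 2-fold, where 2.48% of all measured genes were. All 14 were on the positive side (median 0.17).

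In all, 4 of 8 measured acute phase genes were at least 2-fold higher. Saa3, serum amyloid A3, which fibroblasts and macrophages secrete in inflammation, went from 210.2 to 9717 (46.2-fold), the largest difference among genes above the floor on both FAN -/- arrays. Ccl5, given above as a bound, has no place in that order. In FAN +/+ cells Saa3 went from 1105 to 16155 (14.6-fold), so its FAN -/- signals were below the FAN +/+ ones in both states. Steap4, a metalloreductase, and Lcn2, which binds bacterial siderophores, came from below the floor to 509 and 286, at least 6.61-fold and at least 3.71-fold higher. On the FAN +/+ arrays Lcn2 read 1959 and 7501. Cp, the copper carrier ceruloplasmin, was 3.295-fold higher (407 to 1342), with log2 differences of 0.36 to 1.89 over its other probe sets. Hp, haptoglobin, reached only 127 from below the floor (at least 1.65-fold) against at least 8.21-fold in FAN +/+ cells.

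Of 8 measured complement genes, 1 was past the limit, where 2.48% of all measured genes were. This was Cfb, factor B of the alternative pathway, at 118 and 334 (2.83-fold), with the signal on the TNF-treated FAN +/+ array at 1628 (17.1-fold). C1s1, C2 and Serping1, the C1 inhibitor, differed by 0.35, 0.31 and -0.15 log2. C1qa, C1qb and C1qc, products of macrophages, did not lie above the floor.

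**Figure D3:**
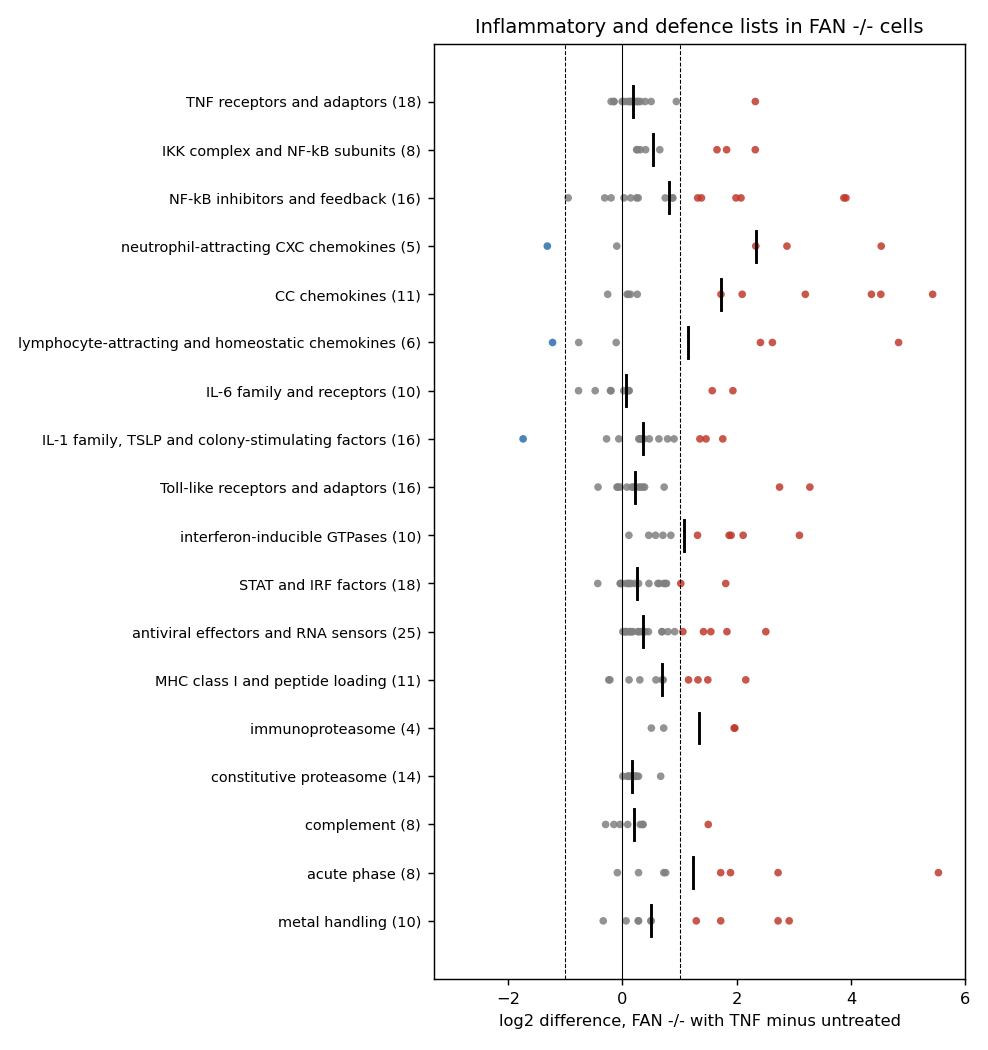
Log2 difference (TNF-treated minus untreated FAN -/- array, x axis) of each measured gene of 18 lists of inflammatory and defence genes, with the number of measured genes in brackets; short bars are list medians and dashed lines mark 2-fold. Chemokine and acute phase genes reach farthest to the right (Saa3 at 5.53, Ccl5 at 5.43 as a bound), while constitutive proteasome genes stay between 0.01 and 0.67.

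The adhesion molecules that leukocyte integrins bind were higher. Vcam1 went from 1109 to 5386 (4.86-fold), with log2 differences of 1.87 and 2.18 on its other probe sets. Icam1 went from 872 to 3840.0 (4.40-fold). Cd44, the hyaluronan receptor, was close to the limit at 3169.9 and 6174 (log2 0.96). On the lower side were Alcam (1229.7 to 489, 2.52-fold) and Mcam (609 to 278, 2.19-fold), relatives of the same immunoglobulin family. The leukocyte adhesion list therefore held 2 higher and 2 lower genes of 14.

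Of 14 metalloproteinases and their inhibitors, 3 were 2-fold higher and 1 lower, where 1.38% and 1.1% of all measured genes were. Mmp3, stromelysin, went from 89.0 to 3186 (35.8-fold), the largest after Saa3 among genes above the floor on both FAN -/- arrays. Its untreated signal on the FAN +/+ array was already 4135, and with TNF it read 16852 there (4.08-fold). The FAN -/- cells had less Mmp3 signal in both states. The highest log2 values of the 4 arrays were 14.34 to 14.397, and the FAN +/+ signals of Mmp3 and Saa3 with TNF lay near that top. The part of this limit in the difference between the genotypes' ratios was not tested. Mmp13, a collagenase, came from below the floor to 353 (at least 4.58-fold) and Mmp9, a gelatinase, went from 86.5 to 209 (2.42-fold, with its other probe set at 0.23 log2). Mmp2, another gelatinase, and Mmp14, its membrane-bound activator, differed by -0.33 and -0.11. Of the inhibitors, Timp1 went from 5234 to 9423 (log2 0.85) and Timp3 from 9599.9 to 5268 (-0.87), in opposite directions and both under 2-fold. Reck, a membrane-bound inhibitor, was 2.17-fold lower (2152 to 994). Among 10 ADAMTS genes (median -0.29), Adamts7 was 2.08-fold higher and Adamtsl1, a secreted relative without protease activity, 4.74-fold lower (615 to 129.9). None of 8 genes of the plasminogen system and none of 13 cathepsins and cystatins reached 2-fold (medians -0.01 and 0.02). Of all measured genes, 2.48% did.

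Genes of metal handling, redox defence and small mediators completed the higher side. The metallothionein gene Mt2, whose product binds zinc and copper, went from 1541 to 11654 (7.56-fold). Its near copy Mt1 went from 1879.7 to 4606 (2.45-fold), with its other probe set at 0.53 log2, and signal may be shared between them. Sod2, the mitochondrial superoxide dismutase, was 2.41-fold higher (1163 to 2807, log2 differences of 0.52 to 1.58 on its other probe sets), against 5.46-fold in FAN +/+ cells. In the metal handling list, which also holds Steap4 and Cp, 4 of 10 genes were 2-fold higher. Other redox genes stayed under the limit, with Hmox1 at 0.39 and Nqo1 at 0.13 log2. In that list 1 of 17 genes was 2-fold higher, where 1.38% of all measured genes were. Gch1, which makes the cofactor of nitric oxide synthases, came from below the floor to 357 (at least 4.64-fold, with its other probe set at 0.54 log2), and Slc7a2, an arginine transporter, went from 706 to 1593 (2.26-fold). Nos2, the inducible synthase itself, did not lie above the floor. Of the nitric oxide list, 2 of 6 genes were 2-fold higher. Ptges, a prostaglandin E synthase, was 2.27-fold higher (696 to 1578). Ptgs2, or COX-2, was strong before TNF and under the limit (4592 and 6902, 1.503-fold), whereas it went from 1752 to 6256 (3.57-fold) in FAN +/+ cells. Of this list 1 of 8 genes was 2-fold higher in FAN -/- cells, and 5 of 10 in FAN +/+ cells.

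Of 6 measured genes of the oxysterol list, 2 were at least 2-fold higher, 4 had a positive and 2 a negative difference. Ch25h, which makes 25-hydroxycholesterol, went from 227 to 3234 (14.2-fold), and Cyp7b1, which converts it further, from 138 to 435 (3.14-fold). Apoe, apolipoprotein E, went from 133 to below the floor, with a log2 difference of -0.79 as a bound. The sterol and fatty acid synthesis list had 0 genes higher and 0 lower of 19, with 16 negative differences and a median of -0.11. Sqle (-0.39), Cyp51 (-0.31) and Hmgcs1 (-0.21) were the farthest below 0 of those named here. In the sphingolipid list, which holds the sphingomyelinases, 0 of 24 genes were higher and 0 lower (median -0.01). Of all measured genes, 1.38% were higher and 1.1% lower. Ugcg, the glucosylceramide synthase, came closest with 651 and 1089 (log2 0.74), and Smpd2, a neutral sphingomyelinase, read 819.6 and 794 (-0.05). Genes of other BEACH proteins did not reach 2-fold either, from -0.47 for Lyst to 0.13 for Wdr81.

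Cell death genes were higher in part. Casp4, the inflammatory caspase that senses lipopolysaccharide, went from 81.4 to 678 (8.34-fold), and its substrate Gsdmd, gasdermin D, from 426 to 1315 (3.09-fold). Bid, which links death receptors to mitochondria, was 3.60-fold higher (514 to 1849.8). Mlkl, the executor of necroptosis, was close to the limit (log2 0.94), and Casp8, its inhibitor Cflar and Ripk3 differed by 0.59, 0.16 and 0.09. The counts were 2 of 12 for caspases and their partners and 1 of 13 for the BCL-2 family. Gadd45a, a stress gene, was 2.44-fold higher, but 11 of 17 p53 targets had negative differences and the median was -0.12.

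Of the 165 higher genes 83 were in the lists and 82 were not. Rnd1, a small GTPase that loosens the actin skeleton, was the highest of the latter among genes above the floor on both arrays, from 102 to 847 (8.28-fold). The others named here were picked after their values were seen. Tnfaip2 went from 1637 to 4864 (2.97-fold), Stx11, a vesicle fusion protein, from 168 to 724 (4.31-fold), and Tank, an adaptor of TRAF proteins, from 484 to 1092 (2.26-fold, with its other probe set at 0.39 log2). The transcription factor genes Klf10 (3.42-fold), Bhlhe40 (2.66-fold), Ets1 (2.44-fold) and Mycl (2.98-fold) were higher too, although the other probe set of Mycl differed by 0.01 log2. Edn1, the vasoconstrictor endothelin, went from 356 to 816 (2.29-fold).

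On the lower side, the small leucine-rich proteoglycans, which space collagen fibrils, stood out: 5 of 9 were at least 2-fold lower, and the median was -1.03 against -0.10 in FAN +/+ cells. Omd, osteomodulin, went from 621 to 117 (5.30-fold), against 7.14-fold in FAN +/+ cells. Ogn, osteoglycin, went from 6525 to 1438 (4.54-fold, and 3.86-fold in FAN +/+ cells). Aspn, asporin, went from 3158 to 760.4 (4.15-fold, and 4.87-fold in FAN +/+ cells). These 3 were thus low with TNF in both genotypes. Fmod, fibromodulin, went from 2223 to 1087 (2.04-fold), with a log2 difference of -0.36 in FAN +/+ cells. Lum, lumican, went from 438 to 175 (2.50-fold). It read 6876 and 10978 on the FAN +/+ arrays, higher with TNF and far above the FAN -/- signals in both states. Bgn, biglycan, read 16272 and 16471, and Dcn, decorin, had log2 differences of -0.32 in FAN -/- and 0.66 in FAN +/+ cells.

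Elastic fibre genes had 13 negative differences of 16 (median -0.27), with 2 past 2-fold. Eln, elastin, went from 721 to 195 (3.69-fold, with its other probe set at -0.45 log2) and the fibrillin Fbn2 from 943 to 417 (2.26-fold). Lox, the cross-linking enzyme, was strong in both states (18544 and 15642). Of the collagens, 17 of 20 had negative differences (median -0.30), most of them small: Col1a1 and Col1a2 differed by -0.35 and -0.12, and Col3a1 by -0.66. Past the limit were Col8a2 (439 to 95.7, 4.58-fold lower) and Col11a1 (3202 to 1444, 2.22-fold lower). Col5a3 was the exception, 3.81-fold higher (445 to 1697). Of 22 matricellular and adhesive proteins, Nid2, a basement membrane nidogen (432 to 149, 2.90-fold), and Ccn3 (2253 to 958, 2.35-fold) were 2-fold lower, while fibronectin, Fn1, had a log2 difference of 0.01. Thbs2, a thrombospondin, was near the limit in FAN -/- cells (log2 -0.94, against 0.01 in FAN +/+ cells).

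Of 17 integrins and cadherins, the collagen receptor Itga1 was 2.55-fold lower (825 to 323) and none was higher by 2-fold. Among contractile genes Cnn1, calponin, was 2.08-fold lower (2082 to 1002). The 19 measured contractile genes had a median of -0.17, with Acta2 at 0.01 and Tagln at -0.06. Myh10, a nonmuscle myosin heavy chain outside the lists and named after its value was seen, was 2.45-fold lower from a strong signal (7669.6 to 3128).

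In the list of secreted Wnt antagonists, Wnt ligands and ROR receptors, 3 of 15 were 2-fold lower and 0 higher (median -0.49). Ror1, a receptor of Wnt5a, went from 512 to 121 (4.23-fold), though the mean over all its probe sets gave a log2 difference of -0.51. The ligand Wnt2 went from 504 to 174 (2.90-fold) and the antagonist Sfrp1 from 5535 to 2339.6 (2.37-fold). Dkk2, another antagonist, was weak in FAN -/- cells (224 and 144, log2 -0.64) and strong before TNF in FAN +/+ cells (1279 and 190.0, -2.75).

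Nkd2, an inhibitor of Dishevelled outside the list, was among the 15 lowest measured genes. It went from 543 to 115 (4.74-fold), with log2 differences of -1.30 and -1.30 on its other probe sets, and it read 84.9 and below the floor in FAN +/+ cells. Further Wnt genes were named after their values were seen. Lgr5, the R-spondin receptor, went from 371 to 128 (2.90-fold), and the receptor genes Fzd1 and Lrp6 from 1896 to 886 (2.14-fold) and from 1899 to 888 (2.14-fold). Tcf7l2, a nuclear partner of beta-catenin, was 2.12-fold lower, and the cytoplasmic genes Prickle1, Daam2 and Dixdc1 2.45-fold, 2.30-fold and 2.05-fold lower. Daam1 was on the other side, 2.01-fold higher (504 to 1011), and Axin2, the usual target gene of the pathway, differed by -0.22 log2 (144 and 123). Apart from Axin2, these genes were chosen for their values and so say nothing about the pathway as a whole.

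In the TGF-beta and BMP list, 6 of 27 genes were 2-fold lower and 0 higher. Bmp4 went from 4634 to 1558 (2.98-fold lower), against 1.42-fold in FAN +/+ cells. All 4 Id genes, targets of BMP signalling that block differentiation factors, were lower. Id4 went from 1694 to 539.8 (3.14-fold) and Id1 from 1762 to 654 (2.69-fold). Id3 went from 4474 to 1958 (2.29-fold) and Id2 from 479.9 to 211 (2.27-fold). Their log2 differences in FAN +/+ cells were also negative, from -1.71 for Id4 to -0.56 for Id2. Fst, follistatin, which binds activin, was 2.06-fold lower (3673 to 1785). Ligands of TGF-beta itself went in different directions without passing the limit: Tgfb1 differed by 0.55, Tgfb2 by -0.98 and Tgfb3 by -0.94 log2. Grem1, a BMP antagonist, had a log2 difference of 0.62.

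Insulin-like growth factor and imprinted growth genes were mostly lower with TNF. Of 13 genes of the IGF axis, 12 had negative differences (median -0.57), and Igf2 passed the limit with 1241 and 549 (2.26-fold lower). Igf1 and Irs1 lay at -0.77 and -0.71. Among imprinted genes, Mest went from 644 to 92.3 (6.97-fold lower), Plagl1 from 4053 to 1572 (2.58-fold) and Peg3 from 2960.1 to 1221 (2.42-fold). On the FAN +/+ arrays Mest read 4710.0 and 2033, so its FAN -/- signals were far lower in both states. Meg3 and Dlk1 were under the limit (log2 -0.41 and -0.05). With Igf2, which is in both lists, 4 of 11 imprinted genes were 2-fold lower.

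Growth factors of other families lay on both sides. Egfl6, a secreted matrix protein with EGF repeats, had the largest lower difference among genes above the floor on both FAN -/- arrays, from 1011 to 126 (8.05-fold). Fgf18 went from 579 to 153 (3.78-fold lower) and Pdgfrl from 509 to 210.2 (2.42-fold lower). Ereg, an EGF receptor ligand, was 3.76-fold higher (621 to 2334). Vegfc, the lymphatic growth factor, was 2.51-fold (397 to 998) and Angptl4 2.38-fold higher (1205 to 2864). Pdgfb, a platelet-derived growth factor chain, was weak and 3.01-fold higher (86.5 to 260.0), with its other probe set at 0.40 log2. Gdnf, a neurotrophic factor named after its value was seen, came from just under the floor to 200.1, at least 2.60-fold higher.

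Guidance genes were split as well, 3 higher and 3 lower of 27, where 1.38% and 1.1% of all measured genes were. Ntn1, netrin, went from 363 to 1172 (3.23-fold higher, with its other probe set at 0.34 log2) and Nrp2, a semaphorin and VEGF receptor, from 479 to 1171 (2.45-fold higher). Epha4 was 2.27-fold higher and its relative Epha3 at least 3.54-fold lower (273 to below the floor), although the other probe sets of Epha3 differed by -0.51 and -0.32 only. Sema3d and Sema5a were 2.18-fold and 2.22-fold lower. The adhesion proteins Flrt2 (2738 to 5777, 2.11-fold) and Flrt3 (119.7 to 256, 2.14-fold), picked after their values were seen, were higher.

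Transcription factors of mesenchymal patterning leaned low, with 18 of 25 negative and a median of -0.38. Osr2 alone passed 2-fold (175 to 80.9, 2.16-fold lower), while Prrx1 and Prrx2 lay at -0.76 and -0.99 and Twist2 at 0.90. None of 21 measured Hox genes reached 2-fold, where 2.48% of all measured genes did, and their median was -0.17. The same held for 8 cartilage and bone genes (median -0.30). Outside the lists, and named after its value was seen, Ahr, the aryl hydrocarbon receptor, went from 2107 to 618 (3.41-fold lower; its other probe set -0.84 log2), against 2342 and 1908 in FAN +/+ cells. Its repressor and target Ahrr went from 211 to below the floor, at least 2.73-fold lower. Also named after their values were seen, the Hedgehog factor Gli2 (2.03-fold) and the coreceptor Gas1 (2.27-fold) were lower, but another probe set of Gas1 differed by 0.06 log2. Mef2c, chosen in the same way, was 2.59-fold lower (266 to 103).

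Retinoid and peptide hormone genes were likewise named after their values were seen. Aldh1a2, which makes retinoic acid, was 2.38-fold higher (264 to 629). Dhrs3, which reduces retinaldehyde, was 2.59-fold (766 to 296) and Crabp2, a retinoic acid carrier, 2.39-fold lower (1609 to 673). The receptor genes Agtr2 for angiotensin (316 to 104, 3.03-fold) and Npr3 for natriuretic peptides (2375 to 1122, 2.12-fold) were lower. Ednrb, a receptor of endothelin, went from 206 to below the floor (at least 2.67-fold lower), while the ligand gene Edn1 was higher, as given above.

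Among the 15 lowest measured genes and the largest bounds were a few of other kinds. Ppp1r3c, which targets a phosphatase to glycogen, went from 434 to 112 (3.87-fold lower, with its other probe set at -0.52 log2), and it was the only gene of 10 in the adipogenic list past the limit. Gas2, a growth-arrest gene for an actin-associated protein, went from 1730.1 to 457 (3.78-fold lower). Ecrg4, a secreted peptide precursor, went from 485 to 126 (3.86-fold lower), with log2 differences of -1.57 to -0.39 on its other probe sets. Palmd, palmdelphin, went from 494 to below the floor, at least 6.41-fold lower. In FAN +/+ cells these 4 genes were also lower, by log2 differences of -2.97 (a bound), -1.78, -1.76 and -2.45. Slc14a1, a urea transporter, went from 481 to 128 in FAN -/- cells (3.77-fold lower) and from 118 to below the floor in FAN +/+ cells (log2 -0.62, a bound).

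**Figure D4:**
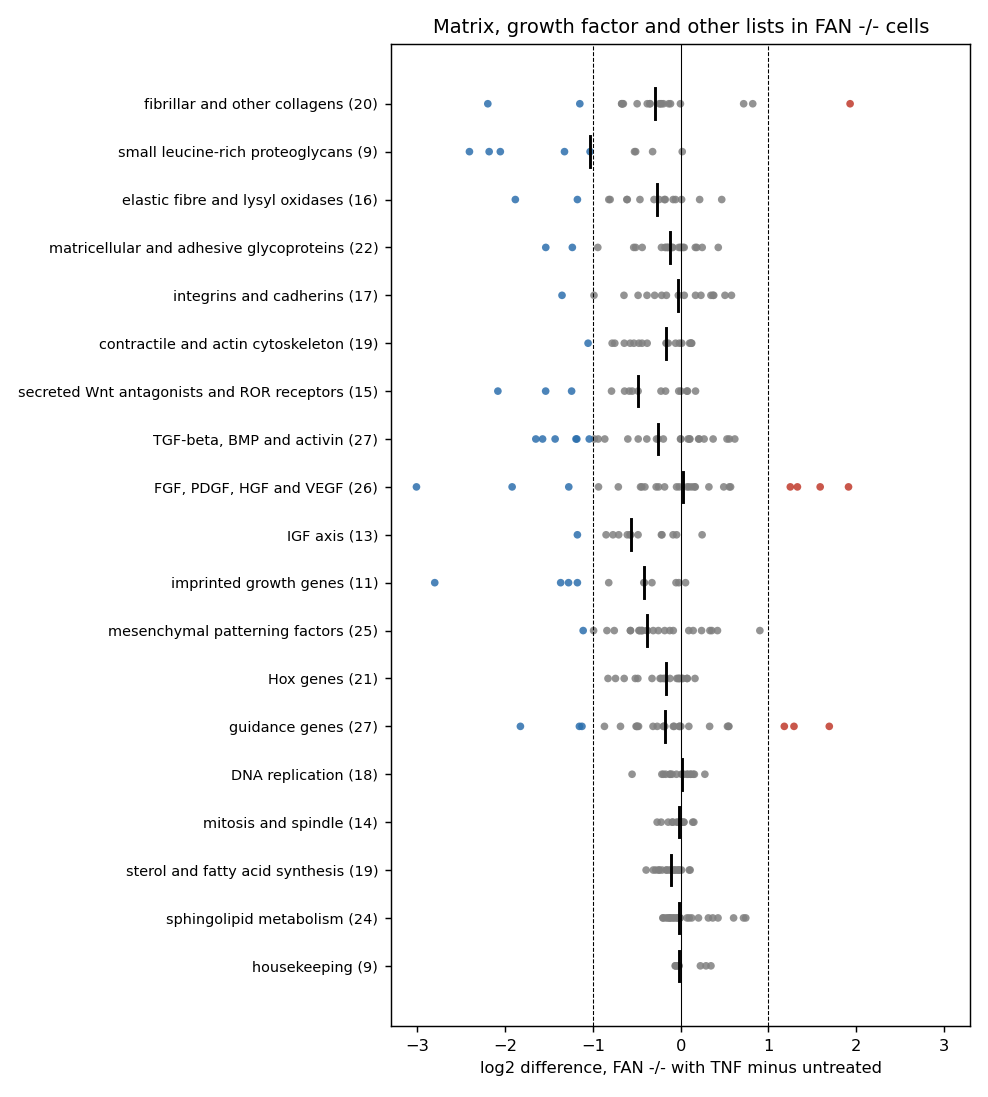
Log2 difference (TNF-treated minus untreated FAN -/- array, x axis) of each measured gene of 19 lists of matrix, growth factor, patterning and reference genes, with the number of measured genes in brackets; short bars are list medians and dashed lines mark 2-fold. The small leucine-rich proteoglycans have the lowest median (-1.03), and DNA replication, mitosis, sterol, sphingolipid and housekeeping genes all stay within 2-fold.

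None of 18 DNA replication genes and none of 14 mitosis genes reached 2-fold, where 2.48% of all measured genes did. Their medians were 0.01 and -0.02. Of 23 mitosis genes, 9 did not lie above the floor on either FAN -/- array and 4 of those measured were bounds, so lower signals could hardly show. In FAN +/+ cells, where 20 and 22 genes of these lists were measured, the medians were -0.38 and -0.63. Mki67, the proliferation marker, lay at or near the floor in both FAN -/- states and Cdk1 read 389 and 352 (log2 -0.14 against -0.61 in FAN +/+ cells). Cdk6, a kinase of early G1, was 2.55-fold higher (974 to 2479, other probe sets at 0.14 and 1.33 log2) and the inhibitor Cdkn1b 2.07-fold lower (535 to 259), the genes past the limit among 18 cell cycle regulators (median -0.26). Glycolysis and hypoxia genes had a median of 0.13 against 0.59 in FAN +/+ cells, and Hk2 alone was 2-fold higher (468 to 959). The 9 housekeeping genes had a median of -0.02, and Actb, Rplp0 and Tbp differed by -0.02, -0.06 and -0.06 log2. Hprt was the highest of them at 0.34.

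Over the 5 leukocyte markers of 12 that were measured, the summed signal was 1534 untreated and 1007 with TNF. Among them, Lyz2 was 2.51-fold lower (778 to 309.8), and its near copy Lyz1, whose signal cannot be separated from it, went from 682 to 254. In FAN +/+ cells Lyz2 read 237 and 347. The sums over measured markers were 413 and 419 for 3 of 8 endothelial and 864 and 848 for 4 of 8 epithelial markers. They were 90083 and 76309 for all 12 fibroblast and 34306 and 31866 for all 7 smooth muscle markers. Of 12 fibroblast markers 10 had a negative difference (median -0.34), Lum was past the 2-fold limit (-1.32) and Thy1 near it (1234 to 642, log2 -0.94). Of 7 smooth muscle markers 5 had a negative difference (median -0.58), and Cnn1 was past the limit (-1.05). Map2, a neuronal marker, went from 182 to below the floor, at least 2.36-fold lower, and Tubb3 from 137 to 261. In such bulk RNA, fewer cells of a type and less RNA per cell cannot be told apart.

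Set beside FAN +/+ cells, the direction of the FAN -/- response was largely the same. Both comparisons use their own pair of arrays and share none. In FAN +/+ cells 270 of 11889 measured genes were at least 2-fold higher (2.27%) and 235 lower (1.98%), or 4.25% either way. Of these, 123 were higher in both genotypes, which is 74.5% of the FAN -/- genes and 45.6% of the FAN +/+ genes, and 69 were lower in both (52.7% and 29.4%). No gene was 2-fold higher in one genotype and 2-fold lower in the other. Of the 165 genes higher in FAN -/- cells 160 had a positive difference in FAN +/+ cells, and of the 131 lower ones 123 had a negative one, 5 a positive one and 3 no value above the floor. Across the 11586 genes measured in both, the log2 differences correlated at r = 0.73, as a description over genes, which are not independent replicates.

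Size differed by gene. Of the 165 higher genes 85 had the larger difference in FAN -/- cells, and of the 131 lower ones 84, and choosing the genes on the FAN -/- arrays favours this. The median over the 165 genes was 1.46 in FAN -/- and 1.51 in FAN +/+ cells, and over the lower ones -1.28 and -1.04. Among genes above the floor on all 4 arrays, the response of FAN -/- cells was more positive by the most for Mmp3 (difference of log2 responses 3.14), Cxcl1 (2.33), Dkk2 (2.11), Plin4 (1.77), Ano1 (1.74), Msx1 (1.73), Cxcl5 (1.73) and Saa3 (1.66). Mmp3, Cxcl1, Cxcl5 and Saa3 were the inflammatory genes with low untreated FAN -/- signals described above. In FAN +/+ cells Dkk2, the lipid droplet gene Plin4 and the homeobox gene Msx1 had log2 differences of -2.75, -2.11 and -1.98, against -0.64, -0.34 and -0.25 in FAN -/- cells. Plin4 was weak in FAN -/- cells, at 118 untreated and 93.2 with TNF. The response was less positive by the most for Cfb (-2.59), Lyz1 (-2.18), Lum (-1.998), Ptgfr (-1.98), Lyz2 (-1.87), Prr16 (-1.85), Elobl (-1.82) and Il1rn (-1.76). Prr16 differed by 1.91 log2 in FAN +/+ and 0.06 in FAN -/- cells. Ptgfr, a prostaglandin receptor, was higher with TNF in FAN +/+ cells (log2 2.18) and differed by 0.20 in FAN -/- cells, with its other probe set at -0.01. Its FAN -/- signals, 84.9 and 97.3, were also near the floor. Elobl had an untreated signal of 1144 in FAN -/- against 175 in FAN +/+ cells, and 254 and 137 with TNF. With 1 array per condition, these differences between genotypes were not tested.

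**Figure D5:**
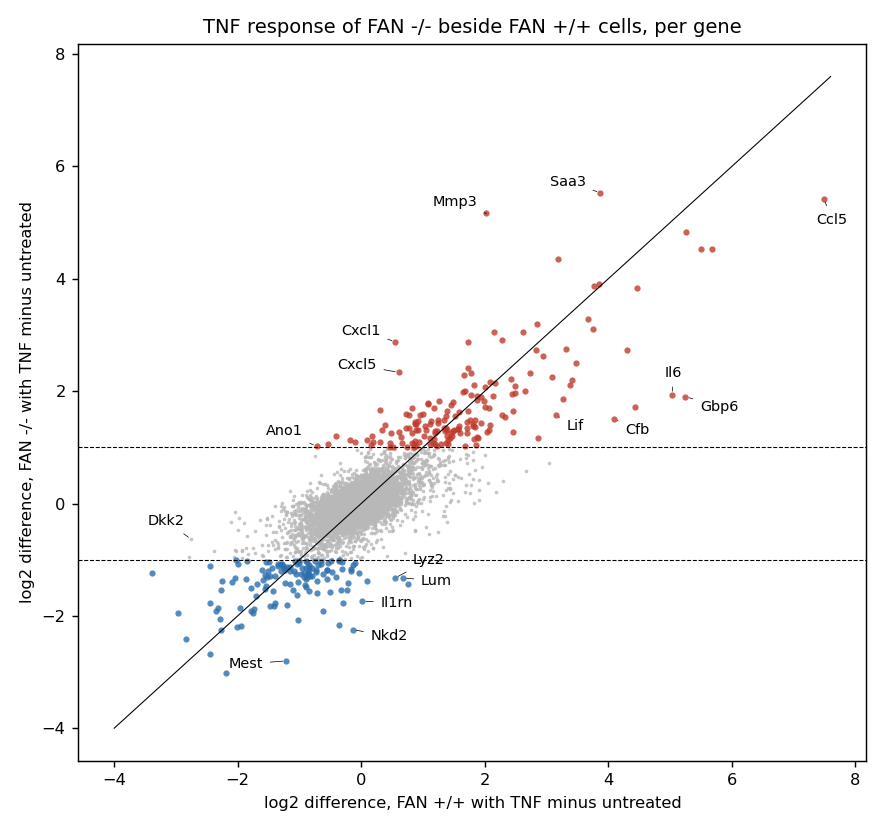
Log2 difference with TNF in FAN +/+ cells (x axis) and in FAN -/- cells (y axis) for the 11586 genes measured in both; the solid line marks equal responses and the dashed lines a 2-fold difference in FAN -/- cells, with higher genes in red and lower genes in blue. Most coloured genes share the sign, Mmp3, Cxcl1 and Cxcl5 lie above the line, and Il6, Gbp6 and Cfb below it.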

How the data were processed

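Expression was read on 4 Affymetrix Mouse Genome 430 2.0 arrays, 1 for each genotype and treatment. The deposited values are log2 probe set signals, and MAS5 is named per the submitters' processing notes, without a version. The scaling between arrays is not stated. Of 45101 probe sets, 34945 carry a single gene symbol, 932 carry several, 9160 have no name here and 64 are controls, which were left out. 34741 had an Entrez entry in the RefSeq gene table (GRCm38.p6) and none changed its symbol.

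Values were returned to the linear scale, raised to a floor at percentile 50 of all values (77.0), and differenced as log2 per gene, from the probe set of highest mean over the 4 arrays. A difference of at least 2-fold is a call of size only. Precision is limited by the number of arrays, and with 1 array on each side of the FAN -/- comparison no test was made. The script was tested on simulated data. Python 3.11.15 was used with numpy 2.4.6, pandas 2.3.3, scipy 1.17.1 and matplotlib 3.10.9.

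The genes and the 57 lists (1029 genes, 785 measured, 89 not analysed here) were chosen with earlier results of these data known. The text names the 15 highest and 15 lowest measured genes whose other probe sets had the same direction, the 6 largest bounds each way under the same condition, up to 8 members past 2-fold and up to 4 others per list, a set of known TNF targets, and the 8 genes each way that differed most between genotypes. Genes outside this rule are said to be named after their values were seen. Alternatives were other floors, no floor, array centring, quantile normalization and other choices of probe set.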

Additional observations from a re-analysis of the deposited data

Results flagged for a closer look

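For 10 genes with at least a 2-fold difference in FAN -/- cells, the difference in FAN +/+ cells had the opposite sign, on 1 array per condition. The difference between the genotypes was not tested. Higher in FAN -/- cells and lower in FAN +/+ cells were Nova1 (log2 1.21 and -0.41), an RNA-binding protein gene, and Scube3 (1.13 and -0.18), a secreted glycoprotein gene. The same pattern was seen for the adhesion protein gene Flrt3 (1.10 and -0.10), the orphan receptor gene Gprc5a (1.06 and -0.55) and the chloride channel gene Ano1 (1.02 and -0.72). Lower in FAN -/- and higher in FAN +/+ cells was Il1rn (-1.74 and 0.02). Its FAN +/+ value was close to 0, as was that of the protease-like gene Prss35 (-1.37 and 0.09). Prss35 read 83.1 with TNF in FAN -/- cells, also near the floor. Lum differed by -1.32 and 0.67. The lysozyme genes Lyz1 (-1.43 and 0.75) and Lyz2 (-1.33 and 0.55) share sequence and count as a single observation. Gprc5a, Nova1, Prss35 and Scube3 were named after their values were seen.

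Signal outside the gene comparison was also found. Of 2226 measured probe sets without a gene name, 28 were at least 2-fold higher with TNF in FAN -/- cells (1.26%) and 13 lower (0.584%). The one with the largest difference went from 170.5 to 2841 (16.7-fold), and from 2399 to 12471 in FAN +/+ cells.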

How the results depend on the processing

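With 9 other settings, 111 to 186 genes were at least 2-fold higher with TNF in FAN -/- cells and 95 to 146 lower, against 165 and 131. The lowest counts came with the floor at percentile 70, where fewer genes are measured. The same setting left 81 genes higher and 44 lower in both genotypes, against 123 and 69. Gprc5a, Nova1, Prss35 and Scube3 were not run under these settings. No other gene of the text that was at least 2-fold apart turned its direction under a setting run here. Genes under the limit were not checked for this, and the counts have no direction to turn. The genes run were mostly past 2-fold. Genes named above just under the limit, such as Birc2, Cd44 and Socs3, were not among them. For the genes run, 1592 values kept their side of the 2-fold limit, 98 fell below it and 1 passed it, over all settings. With few genes under the limit in this set, the last count had little room to be larger. Another 28 had no value, 15 of them with the floor at percentile 70. Of the list counts 985 stayed within 1.5 times, 28 were smaller and 13 larger. With the mean of all probe sets, 125 genes were higher and 102 lower, and Ror1 differed by -0.51. Without probe sets shared between transcripts, Ano1 differed by 0.44, Mt1 by 0.53 and Plagl1 by -0.97. No paired analysis was possible because the FAN -/- comparison has 1 array on each side. A fit over both genotypes was not run. Signals near the floor, such as those of Traf1, Irf7 and Mki67, allow no statement on size.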
